A study of Mus musculus with 21 samples.

Results

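The comparison described here is BIO against DMSO in dispersed mouse nephron progenitors after 24 h, and it holds 6 of the 21 arrays of the series, chosen by their titles. BIO is an indirubin derivative that inhibits the kinase GSK3. The 3 dispersed BIO arrays held cells given 4 µM BIO for 24 h, and the 3 dispersed DMSO arrays held cells given an equal volume of the solvent for 24 h. Per the labels, all cells were Six2+ progenitors of mixed strain background from E16.5 kidneys, carrying the Six2GFPcre BAC transgene, which drives GFP and Cre from Six2 regulatory sequence and by which they were sorted at 40000 cells a sample. All cultures had DMEM with 10% serum. Fresh progenitors (3 arrays, not cultured) are given beside the results as levels only, and aggregates of the same age in BIO or DMSO for 24 h (3 arrays each) serve for a test of the difference between the formats. The growth protocol describes pelleting by centrifugation without setting the dispersed samples apart, so how the dispersed cells were kept is not stated there or in the titles. The labels call the replicates biological but name no separate litter, sort or culture for each, so p-values here reflect only how far these arrays varied, in part perhaps for technical reasons.

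In the canonical Wnt pathway a Wnt ligand binds a frizzled receptor and its LRP co-receptor, and the destruction complex of Axin, APC, casein kinase and GSK3 stops marking beta-catenin for degradation. Beta-catenin then enters the nucleus and joins TCF and LEF proteins at target genes, several of which encode inhibitors of the pathway itself. A GSK3 inhibitor has the same effect without a ligand. In the fetal kidney, Wnt signals from the ureteric bud both help to keep the Six2+ progenitors and induce some of them to switch on Wnt4, condense into pretubular aggregates and form the renal vesicle from which the nephron grows.

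Levels below are normalized signals, and differences are BIO minus DMSO on the log2 scale, given with the standard error of the fit (n = 3 arrays per group). A gene was called at a Benjamini-Hochberg adjusted p under 0.05 over all 18193 genes tested. Background was set at a signal of 41.8, below which 95% of the values of 27 Bacillus controls lay. Where the mean of a group lay below background, the difference is given as at least so many fold, from group means of log2 values in which each array of that group below background was raised to it. Genes were ranked by the fitted difference, which for such genes depends on the pseudocount and is not itself a bound. Because these are bulk samples, fewer cells of a type and less RNA per cell cannot be told apart.

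Across the 18193 genes 5230 were called (28.7%), 2792 higher in BIO (15.3%) and 2438 lower (13.4%), and 8517 genes (46.8%) had 3 and 3 arrays that did not overlap. At a change of at least 2-fold, 771 were higher (4.24%) and 1127 lower (6.19%). Falls outnumbered rises among the large changes: 259 fell and 143 rose by log2 2 to 3, and 157 fell and 102 rose by log2 3 or more. The first principal component of the 6 arrays carried 59.9% of the variance and ran from 56.2 to 58.7 in BIO arrays, against -58.9 to -56.9 in DMSO arrays. Within a group the arrays correlated at a mean r of 0.990 to 0.992. As a measure of RNA quality, the 3' to 5' signal ratio of Gapdh was 9.79 ± 0.60 in BIO and 12.1 ± 0.46 in DMSO (SD, n = 3 each). The 3' actin control, a signal level and not a ratio, read 8929 ± 296 in BIO and 12104 ± 180.5 in DMSO. Both moved with the treatment. With the Gapdh ratio as a covariate 4523 genes were called, and with the actin control 4989.

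The Wnt target genes had the highest median difference of all gene lists. Of 18 measured feedback and target genes 11 rose and 1 fell, against 15.3% higher and 13.4% lower over all genes, and their median log2 difference was 1.72 against 0.025 over all genes. Wif1, a secreted protein that binds and blocks Wnt ligands, had signals of 1435, 1633 and 1615 in BIO, against 2.89, 1.35 and 2.59 in DMSO. It ranked first among the rises and was higher by at least 36.4-fold (adjusted p = 9.3e-11). Sp5, a zinc finger factor that curbs Wnt targets, had 1953, 1977 and 2021 in BIO and 3.86, 7.99 and 4.76 in DMSO, at least 46.3-fold higher (adjusted p = 1.1e-09). All DMSO arrays of both genes lay below background.

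The promoter of Sp5 is shown because this rise ranked second and its window holds TCF/LEF motif matches, 2 in the 250 bases before the start. It covers chr2:70474673-70474922 of GRCm38.p6 on the plus strand (RefSeq), with matches to CTTTG followed by 2 bases that are each A or T, on either strand, in capitals.
Sp5: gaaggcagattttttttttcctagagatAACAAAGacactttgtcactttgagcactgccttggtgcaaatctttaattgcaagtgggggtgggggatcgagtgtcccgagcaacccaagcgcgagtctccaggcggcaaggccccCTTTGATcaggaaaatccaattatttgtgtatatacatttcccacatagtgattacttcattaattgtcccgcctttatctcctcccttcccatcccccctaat
The same motif lay in 16.9% of all 32851 promoter windows (250 bases before to 50 after a start). It lay in 18.3% of 600 genes that rose at least 2-fold, in 14% of 867 genes that fell at least 2-fold, and in 15.4% of all 14452 tested genes with a window. Of the 11 Wnt targets with a window 5 held it: Lef1, Sp5, Sp8, Dkk1 and Tnfrsf19. Sp8 and Dkk1 were not called. A match says only that these letters are present, and the list was drawn up as Wnt targets with earlier results of these data known.

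Among the other inhibitors of the pathway, Notum, an enzyme that removes the lipid from Wnt ligands, had 4854, 4591 and 4924 in BIO and 121, 77.0 and 114 in DMSO (5.54 ± 0.18, adjusted p = 4.0e-12). Axin2, the feedback scaffold of the destruction complex, had 4790.1, 4749 and 4864 in BIO and 219, 352 and 208 in DMSO (4.25 ± 0.17, adjusted p = 3.0e-11). Rnf43, a ubiquitin ligase that clears frizzled receptors, had 79.6, 64.1 and 58.1 in BIO and 1.5, 1.58 and 1.66 in DMSO, at least 1.58-fold higher (adjusted p = 4.5e-05). Rnf43 in DMSO was at the bottom of the scale.

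Tnfrsf19, a receptor of the tumour necrosis factor family also called TROY, had 4975, 5195 and 5245 in BIO and 76.6, 76.0 and 64.9 in DMSO (6.13 ± 0.17, adjusted p = 6.4e-13). Lef1, the nuclear partner of beta-catenin, had 2677, 2579.8 and 2756 in BIO and 198, 198 and 201 in DMSO (3.74 ± 0.17, adjusted p = 1.3e-10). Lef1 DMSO arrays differed among themselves by only a few units. The other 4 members that rose, named after their values were seen, were Apcdd1 (3.57 ± 0.19), Znrf3 (1.80 ± 0.12), Nkd2 (1.64 ± 0.27) and Nkd1 (1.46 ± 0.13), which all restrain Wnt signalling.

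Myc went the other way. This growth-promoting transcription factor, often listed as a Wnt target, had 622, 651 and 662 in BIO and 2322, 2676 and 2857 in DMSO, a fall of every BIO array below every DMSO array (-2.02 ± 0.22, adjusted p = 2.9e-06). The call of its relative Mycn was lost when all probe sets were averaged: Mycn had 3713, 3531 and 3772 in BIO and 2195, 1895 and 1694 in DMSO (0.94 ± 0.22, adjusted p = 0.0035), and 0.36 with an adjusted p of 0.241 after averaging. Ccnd1, the G1 cyclin D, named after its value was seen, was not called at a difference of 0.57 ± 0.21 (adjusted p = 0.055). It was called in several alternatives, among them at 1.06 when its probe sets were averaged (adjusted p = 0.0035). Others were a fit of the 6 arrays alone (adjusted p = 0.019) and the actin control as a covariate (adjusted p = 0.0075). Leaving out any 1 dispersed array gave no call (adjusted p up to 0.15). Of the 7 measured members of the Myc, Lin28 and Igf2bp group 2 rose and 2 fell (57.1% called, against 28.7% over all genes). Igf2bp3, an RNA-binding protein of fetal growth, was among the rises (0.44 ± 0.10, adjusted p = 0.0023).

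**Figure D1:**
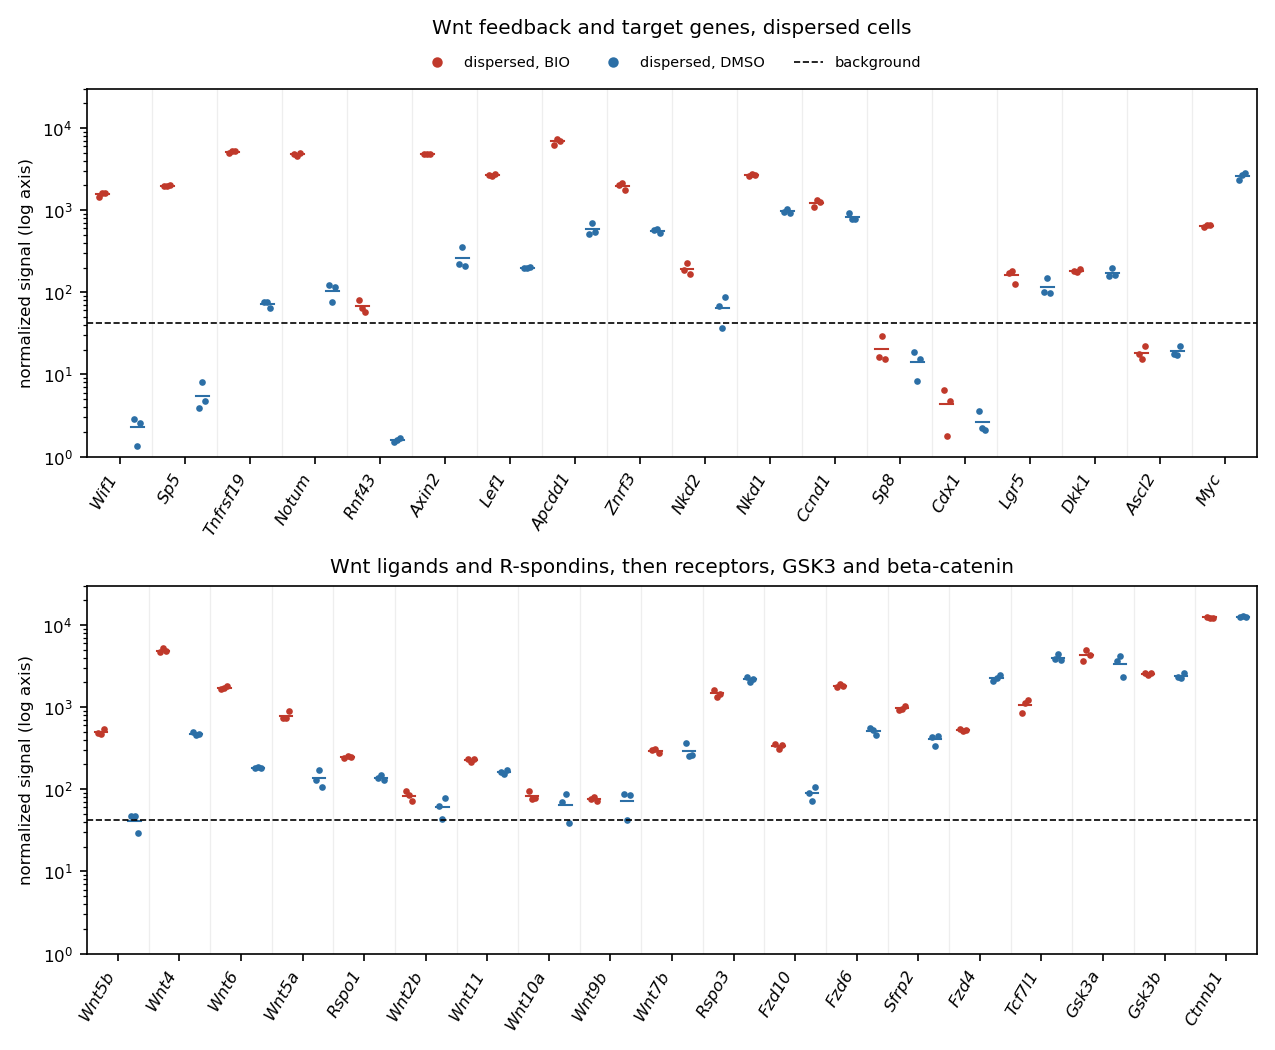
Normalized signal (log axis) of each array for the 18 measured Wnt target genes and for Wnt ligands, receptors, GSK3 and beta-catenin in dispersed cells, BIO left of DMSO; short lines are means of 3 arrays and the dashed line is background. Wif1, Sp5 and Rnf43 lie below background in DMSO and above it in BIO, while Myc is lower in BIO.

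Wnt ligands were higher too. Of 11 measured ligands and R-spondins 6 rose and 1 fell (63.6% called, against 28.7% over all genes), with a median of 0.48. Wnt4, the ligand that progenitors make as they are induced, had 4616, 5234 and 4742 in BIO and 499, 455 and 468 in DMSO (3.36 ± 0.18, adjusted p = 5.6e-10). Wnt6 had 1655, 1725 and 1778 in BIO and 179, 184 and 181 in DMSO (3.24 ± 0.12, adjusted p = 8.9e-12). Both DMSO groups were tight, and no BIO array came near them.

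Ligands best known for signalling outside beta-catenin rose as well. Wnt5a had 728, 730.3 and 901 in BIO and 130.1, 170.0 and 107 in DMSO (2.54 ± 0.19, adjusted p = 4.3e-08). Wnt5b had 479.8, 463 and 547 in BIO and 46.7, 47.6 and 29.6 in DMSO, where the mean was just below background, and rose at least 10.7-fold (adjusted p = 1.2e-08). Rspo1, an R-spondin that amplifies Wnt signals, rose by less (0.83 ± 0.15, adjusted p = 5.9e-04). Its relative Rspo3, named after its value was seen, was the member that fell (-0.57 ± 0.17, adjusted p = 0.015), a call lost without BIO replicate 2 (adjusted p = 0.0659), without DMSO replicate 1 (adjusted p = 0.0580) and when its probe sets were averaged (adjusted p = 0.0837).

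Of the 27 measured receptors and core components 7 rose and 4 fell (40.7% called, against 28.7% over all genes), and the median was 0.09. With values as deposited or each array centred on its median, 4 rose and 4 fell, and the medians were -0.018 and -0.024. Among the frizzled receptors Fzd10 had 359, 309.7 and 349.7 in BIO and 89.2, 71.4 and 106 in DMSO (1.94 ± 0.20, adjusted p = 1.2e-06). Fzd6 had 1769.5, 1888 and 1788 in BIO and 553, 527 and 463 in DMSO (1.82 ± 0.15, adjusted p = 1.4e-07). Fzd4 fell, with 537, 512 and 523 in BIO and 2067, 2282 and 2432 in DMSO (-2.10 ± 0.10, adjusted p = 2.8e-10). Receptors of the family were thus called on either side.

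Sfrp2, a secreted relative of the frizzled ligand-binding domain, rose (1.25 ± 0.17, adjusted p = 3.2e-05). Tcf7l1, the TCF protein that mostly represses, had 837, 1117 and 1208 in BIO and 3862, 4409 and 3738 in DMSO and fell (-1.94 ± 0.43, adjusted p = 0.0025). Neither gene for GSK3, the target of the drug, passed the threshold. Gsk3a had 3674, 4984 and 4293 in BIO and 3643, 4177 and 2309.5 in DMSO (0.39 ± 0.17, adjusted p = 0.099), but it passed without DMSO replicate 2 (0.56, adjusted p = 0.020) and with a robust variance trend (adjusted p = 0.0498). Gsk3b differed by 0.09 ± 0.12 (adjusted p = 0.65) and Ctnnb1, beta-catenin, by -0.03 ± 0.06 (adjusted p = 0.78), with overlapping arrays in both. The sign of the Gsk3b and Ctnnb1 differences turned under other processing, with no call in any case.

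Genes of nephron induction split. Of 16 measured genes of the pretubular aggregate and renal vesicle 6 rose, 2 fell and 8 were not called (median 0.43). In all 50% were called, against 28.7% over all genes. Wnt4, above, belongs to this list. Cxcr4, the receptor for the chemokine CXCL12, had 1461, 1466 and 1686 in BIO and 64.5, 66.5 and 110.2 in DMSO (4.28 ± 0.71, adjusted p = 2.1e-04). Cdh4, or R-cadherin, had 3271, 3164 and 3240.1 in BIO and 434, 533 and 487 in DMSO (2.74 ± 0.13, adjusted p = 1.7e-10). Neither gene had overlapping arrays.

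Greb1, found in early nephron structures, rose by 2.95 ± 0.43 (adjusted p = 5.5e-05). The homeobox gene Irx3, known from the middle segment of the forming nephron, had 549, 572 and 572 in BIO and 75.1, 109.7 and 139 in DMSO (2.42 ± 0.21, adjusted p = 1.5e-07). Emx2, a homeobox gene of the urogenital epithelia, rose at least 2.66-fold (adjusted p = 1.8e-04). These rises came without Lhx1, the homeobox gene that marks the pretubular aggregate. Lhx1 lay below background on all 6 arrays, with 4.82, 5.40 and 5.58 in BIO and 5.04, 4.44 and 2.80 in DMSO, and its level in fresh cells was 287 ± 6.55 (SD, n = 3).

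Pax8, a paired-box gene of the same stage, had 287, 254 and 264 in BIO and 276, 284 and 285 in DMSO and was not called (-0.07 ± 0.11, adjusted p = 0.71). Papss2, which makes the sulfate donor, fell (-2.06 ± 0.29, adjusted p = 3.7e-05), a call lost when its probe sets were averaged (-0.34, adjusted p = 0.545). The growth factor Bmp2 fell too, with 403, 343 and 369 in BIO and 719, 678 and 674 in DMSO (-0.89 ± 0.14, adjusted p = 1.0e-04). Pax8 and Bmp2 were named after their values were seen.

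The progenitor genes divided almost evenly, with 6 of 17 measured called higher, 5 called lower and a median of 0.28. In all 64.7% were called, against 28.7% over all genes. Six2, the transcription factor that defines these cells and holds them undifferentiated, had 1609.5, 1468 and 1548 in BIO and 5171, 4365 and 4756 in DMSO (-1.62 ± 0.12, adjusted p = 4.3e-08). Both sets lay below the fresh level of 8862 ± 365 (SD, n = 3), BIO further, and Six2 was thus detected on every array. Meox1, a homeobox gene of the cap mesenchyme, had 71.0, 73.3 and 90.5 in BIO and 372, 377 and 443 in DMSO and fell as well (-2.33 ± 0.40, adjusted p = 2.6e-04).

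Cited1, the marker of the least committed progenitors, lay below background in both groups, with 6.19, 4.38 and 5.58 in BIO and 14.6, 12.2 and 30.8 in DMSO, against 144 ± 49.7 in fresh cells (SD, n = 3). Cited1 is among the progenitor genes called lower (adjusted p = 0.0057), but no fold is given for it. Osr1, an early gene of the kidney mesenchyme, fell by 2.25 ± 0.66 (adjusted p = 0.016). Its call was lost without DMSO replicate 2 (-2.12, adjusted p = 0.0532) and with the actin control as a covariate (-1.42, adjusted p = 0.0593).

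Other progenitor genes rose. Fgf20, a growth factor by which progenitors sustain themselves, had 897, 868 and 927 in BIO and 6.0, 5.52 and 3.30 in DMSO, at least 21-fold higher (adjusted p = 1.3e-10), and 235 ± 13.6 in fresh cells (SD, n = 3). Spock2, a matrix proteoglycan, had 1859, 1622 and 1916 in BIO and 219, 226 and 251 in DMSO (2.95 ± 0.31, adjusted p = 1.9e-06). Eya1, the phosphatase that acts as cofactor of SIX2 and its relatives, had 4374, 4362 and 4120.2 in BIO and 1826, 1451 and 1609.5 in DMSO (1.40 ± 0.14, adjusted p = 1.4e-06), or 1.10 with an adjusted p of 0.0675 when its probe sets were averaged. Sall1, a zinc finger factor required in the same cells, rose by 1.25 ± 0.13 (adjusted p = 1.3e-06). Eya1 and Sall1, named after their values were seen, thus moved opposite to Six2, with BIO means between the DMSO and the fresh means (7909.9 ± 320.0 for Eya1 and 5799 ± 526 for Sall1 in fresh cells, SD, n = 3). The remaining calls of the list, also named later, were the rise of Uncx (1.09 ± 0.17), a homeobox gene, and the fall of Wt1 (-0.49 ± 0.15), the Wilms tumour factor, beside Rspo1 above. The call of Wt1 was lost without BIO replicate 2 (adjusted p = 0.0699) or DMSO replicate 1 (adjusted p = 0.0585).

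**Figure D2:**
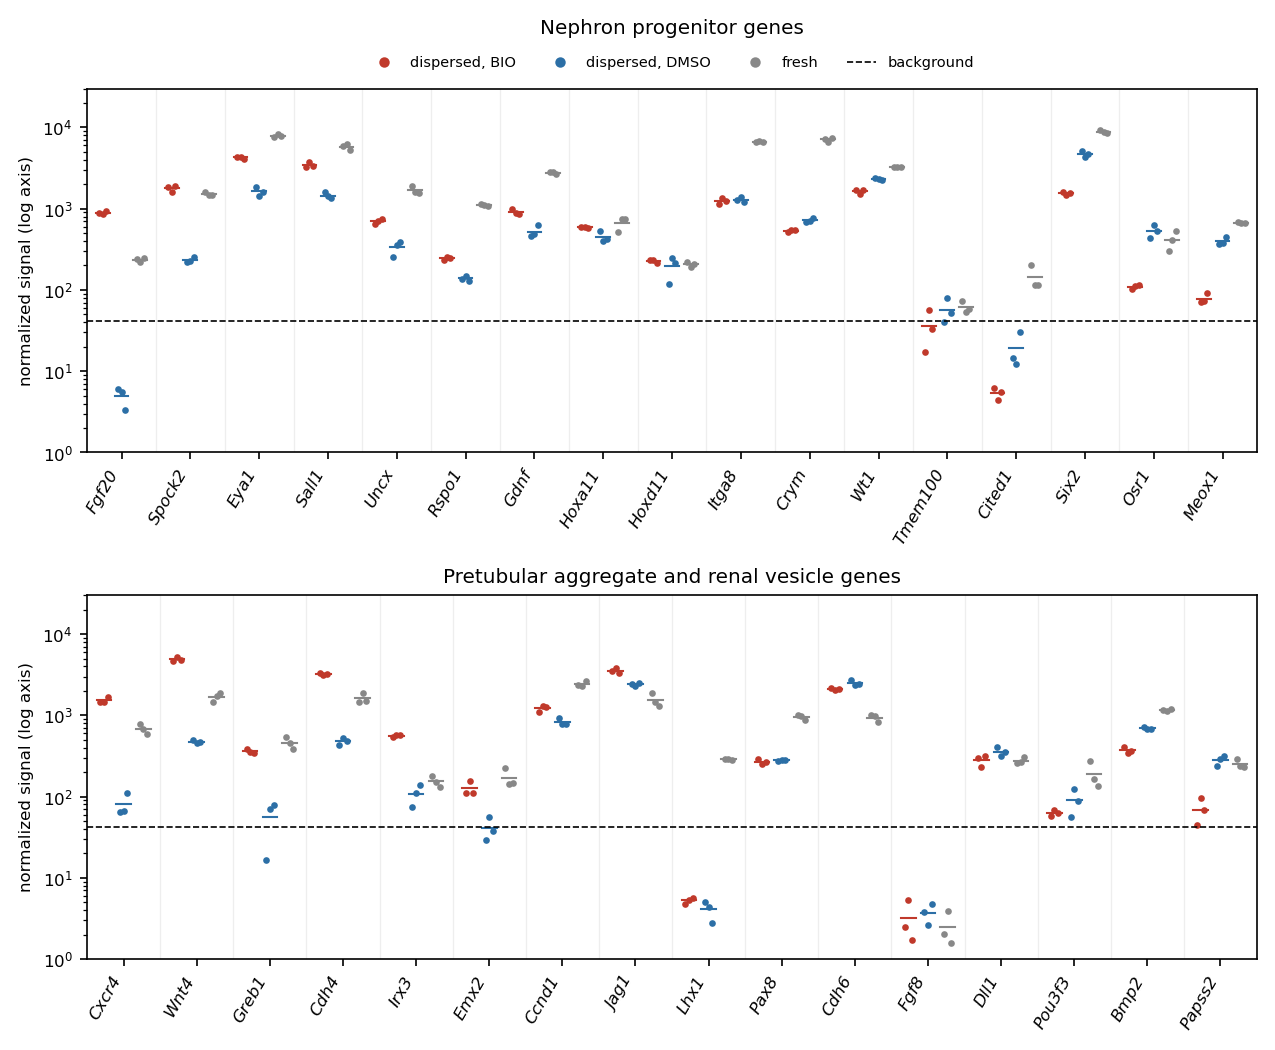
Normalized signal (log axis) of each array for nephron progenitor genes (top) and for pretubular aggregate and renal vesicle genes (bottom) in dispersed BIO, dispersed DMSO and fresh cells, from left to right within a gene; short lines are means of 3 arrays and the dashed line is background. Six2 is lower in BIO than in DMSO, Fgf20, Wnt4 and Cxcr4 are higher, and Lhx1 lies above background in fresh cells but on neither set of dispersed arrays.

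Outside these lists the largest rises were spread over unrelated families. Jakmip1, a microtubule-associated protein studied in neurons, had 1519, 1754 and 1939 in BIO and 6.75, 7.23 and 7.59 in DMSO, at least 40.4-fold higher (adjusted p = 3.5e-08). Egfl6, a secreted protein with EGF repeats, had 2685, 2989.5 and 2939.6 in BIO and 43.0, 32.8 and 35.4 in DMSO, at least 66.3-fold higher (adjusted p = 6.4e-13). Mybpc1, a myosin-binding protein of slow muscle, rose at least 37.0-fold (adjusted p = 9.2e-12). The DMSO arrays were near or below background for each of these genes.

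Adhesion receptors of the nervous system were among them. Tenm2, a teneurin, rose at least 25.4-fold (adjusted p = 9.9e-08), and its relative Tenm4 had 3940.5, 4189 and 3968 in BIO and 131, 138 and 158 in DMSO (4.82 ± 0.19, adjusted p = 3.6e-11). Dcc, the netrin receptor, had 1104, 1133 and 1157 in BIO and 18.1, 63.0 and 39.0 in DMSO, at least 23.1-fold higher (adjusted p = 1.0e-07). In fresh cells Dcc read 22.8 ± 12.3 (SD, n = 3), below background.

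Secreted and matrix proteins formed a further set. Cthrc1, a collagen repeat protein, had 2727, 2418 and 2729.5 in BIO and 104, 85.6 and 127 in DMSO (4.64 ± 0.24, adjusted p = 5.7e-10). Pcolce2, which helps to trim procollagen, rose at least 10.8-fold (adjusted p = 3.1e-07). Thbs4, a thrombospondin, rose at least 3.18-fold (adjusted p = 2.1e-04). Cpz, a carboxypeptidase that binds Wnt proteins, rose at least 4.33-fold (adjusted p = 1.7e-09).

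The remaining large rises were Apoe, the lipid carrier apolipoprotein E, at least 6.42-fold higher (adjusted p = 3.3e-07), and Galnt5, an enzyme that starts O-linked sugar chains, at least 7.15-fold higher (adjusted p = 1.2e-09). Svopl, a transporter-like protein, had 169.7, 303 and 252 in BIO and 3.25, 1.63 and 1.60 in DMSO, at least 5.51-fold higher (adjusted p = 4.4e-11). Tent5c, a poly(A) polymerase, had 4556, 4571 and 4965 in BIO and 171, 245 and 168 in DMSO (4.61 ± 0.26, adjusted p = 1.1e-09). With the 6 genes of the lists above (Wif1, Sp5, Fgf20, Tnfrsf19, Notum and Rnf43) these make the 20 largest rises.

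The contractile cytoskeleton was lower throughout. All 15 measured genes of the serum response and contractile list fell, against 13.4% lower over all genes, with a median of -2.26. They are targets of serum response factor, which binds CArG boxes and works with the actin-sensing cofactor MRTF. Tagln, the actin-binding protein SM22, had 206, 166 and 125 in BIO and 6282, 6255 and 6479 in DMSO (-5.28 ± 0.31, adjusted p = 2.0e-09). In fresh cells it read 61.8 ± 34.4 (SD, n = 3), so the DMSO arrays stood far above both other groups.

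Myl9, a myosin light chain, had 189.7, 151 and 167 in BIO and 2098, 2087 and 2162 in DMSO (-3.64 ± 0.20, adjusted p = 1.1e-09). Cnn2, or calponin 2, had 869, 899.8 and 824 in BIO and 6712, 6191 and 6170.5 in DMSO (-2.88 ± 0.15, adjusted p = 7.3e-10). Tpm1, a tropomyosin, had 906, 715 and 749.9 in BIO and 5036, 4795 and 5306 in DMSO (-2.68 ± 0.16, adjusted p = 1.8e-09). Cnn1, calponin of smooth muscle, was below background in BIO and fell at least 1.87-fold (adjusted p = 3.1e-09). The smallest falls of the list were those of Tpm4 (-0.48 ± 0.07), Actn1 (-0.56 ± 0.08) and Srf itself (-0.61 ± 0.09), named after their values were seen. The count was 15 of 15 whichever dispersed array was left out and with either the Gapdh ratio or the actin control as a covariate.

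Promoter windows of the list are shown for Myl9 and Cnn2, which hold a CArG box and fell most among the members with one, here CC, then any 6 of A or T, then GG. The Myl9 window covers chr2:156775214-156775463 and the Cnn2 window chr10:79988350-79988599, both on the plus strand of GRCm38.p6 (RefSeq), each the 250 bases before the start with the match in capitals.
Myl9: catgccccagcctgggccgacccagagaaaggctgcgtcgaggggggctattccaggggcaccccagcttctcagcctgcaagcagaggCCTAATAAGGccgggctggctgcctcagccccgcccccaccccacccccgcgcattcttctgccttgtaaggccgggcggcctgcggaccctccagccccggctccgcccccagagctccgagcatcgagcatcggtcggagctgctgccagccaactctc
Cnn2: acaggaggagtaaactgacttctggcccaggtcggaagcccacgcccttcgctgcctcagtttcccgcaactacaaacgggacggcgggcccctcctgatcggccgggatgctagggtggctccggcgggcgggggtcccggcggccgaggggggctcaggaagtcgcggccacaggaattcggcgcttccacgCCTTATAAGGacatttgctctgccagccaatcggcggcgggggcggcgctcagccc
Of the 13 list members with a window 4 held a CArG box (Myl9, Cnn2, Srf and Vcl), against 1.58% of all tested genes with a window. The list was drawn up as serum response and contractile genes with earlier results of these data known, so this share is not a test. The share was 3.58% of genes that fell at least 2-fold and 1.83% of genes that rose at least 2-fold. Counted by window and not by gene, it was 1.63% of all windows.

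Targets of YAP, the coactivator of the Hippo pathway that binds TEAD factors and responds to tension and spreading, fell together too. All 12 measured members were lower, against 13.4% lower over all genes, with a median of -2.32. All 12 remained so whichever dispersed array was left out. F3, the coagulation starter tissue factor, had 243, 188 and 228 in BIO and 5955, 4877 and 3946 in DMSO (-4.47 ± 0.29, adjusted p = 7.0e-09). Ankrd1, a muscle ankyrin repeat protein, had 56.6, 23.4 and 38.2 in BIO and 659.9, 639.9 and 633 in DMSO, at least 13.6-fold lower (adjusted p = 3.2e-08). Ccn1, the matrix protein CYR61, had 1371, 1432 and 1195 in BIO and 8676, 8112 and 8205 in DMSO (-2.65 ± 0.16, adjusted p = 2.8e-09).

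Nuak2, a kinase of the AMPK family (-2.62 ± 0.12, adjusted p = 1.2e-10), and Axl, a receptor tyrosine kinase (-2.45 ± 0.15, adjusted p = 2.3e-09), fell by similar amounts. Ccn2, connective tissue growth factor, named after its value was seen, had 2371, 2002 and 2267 in BIO and 11857, 11608 and 12640 in DMSO (-2.44 ± 0.11, adjusted p = 1.3e-10), with 185 ± 29.8 in fresh cells (SD, n = 3). As with Tagln, the DMSO level stood above the BIO level and the BIO level above the fresh one.

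The windows of Ankrd1, Ccn1 and Axl are shown because they hold the TEAD motif GGAATG on either strand (CATTCC on the other). They cover chr19:36119845-36120094, chr3:145649986-145650235 and chr7:25788734-25788983, all on the minus strand of GRCm38.p6 (RefSeq), 250 bases before the start each, with matches in capitals.
Ankrd1: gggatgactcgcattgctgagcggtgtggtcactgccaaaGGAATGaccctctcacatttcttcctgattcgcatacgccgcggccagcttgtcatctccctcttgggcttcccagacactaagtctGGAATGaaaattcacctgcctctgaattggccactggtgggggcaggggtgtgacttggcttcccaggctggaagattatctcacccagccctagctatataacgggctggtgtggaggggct
Ccn1: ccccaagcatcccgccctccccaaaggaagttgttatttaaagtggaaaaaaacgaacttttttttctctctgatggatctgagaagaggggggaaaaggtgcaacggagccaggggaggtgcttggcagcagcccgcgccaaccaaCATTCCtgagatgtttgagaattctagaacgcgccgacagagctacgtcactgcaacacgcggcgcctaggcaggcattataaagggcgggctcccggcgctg
Axl: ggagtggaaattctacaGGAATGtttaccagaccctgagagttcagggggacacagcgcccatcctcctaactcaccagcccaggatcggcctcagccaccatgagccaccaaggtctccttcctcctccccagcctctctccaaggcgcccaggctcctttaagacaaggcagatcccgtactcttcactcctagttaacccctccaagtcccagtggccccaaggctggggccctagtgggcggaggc
Of the 8 YAP/TEAD list members with a window 7 held the motif, against 15.3% of all tested genes with a window. The list was drawn up as TEAD targets with earlier results of these data known, so this share is not a test. The motif lay in 19.5% of the genes that fell at least 2-fold and in 15.5% of those that rose at least 2-fold. Counted by window and not by gene, it lay in 14.7% of all windows.

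**Figure D3:**
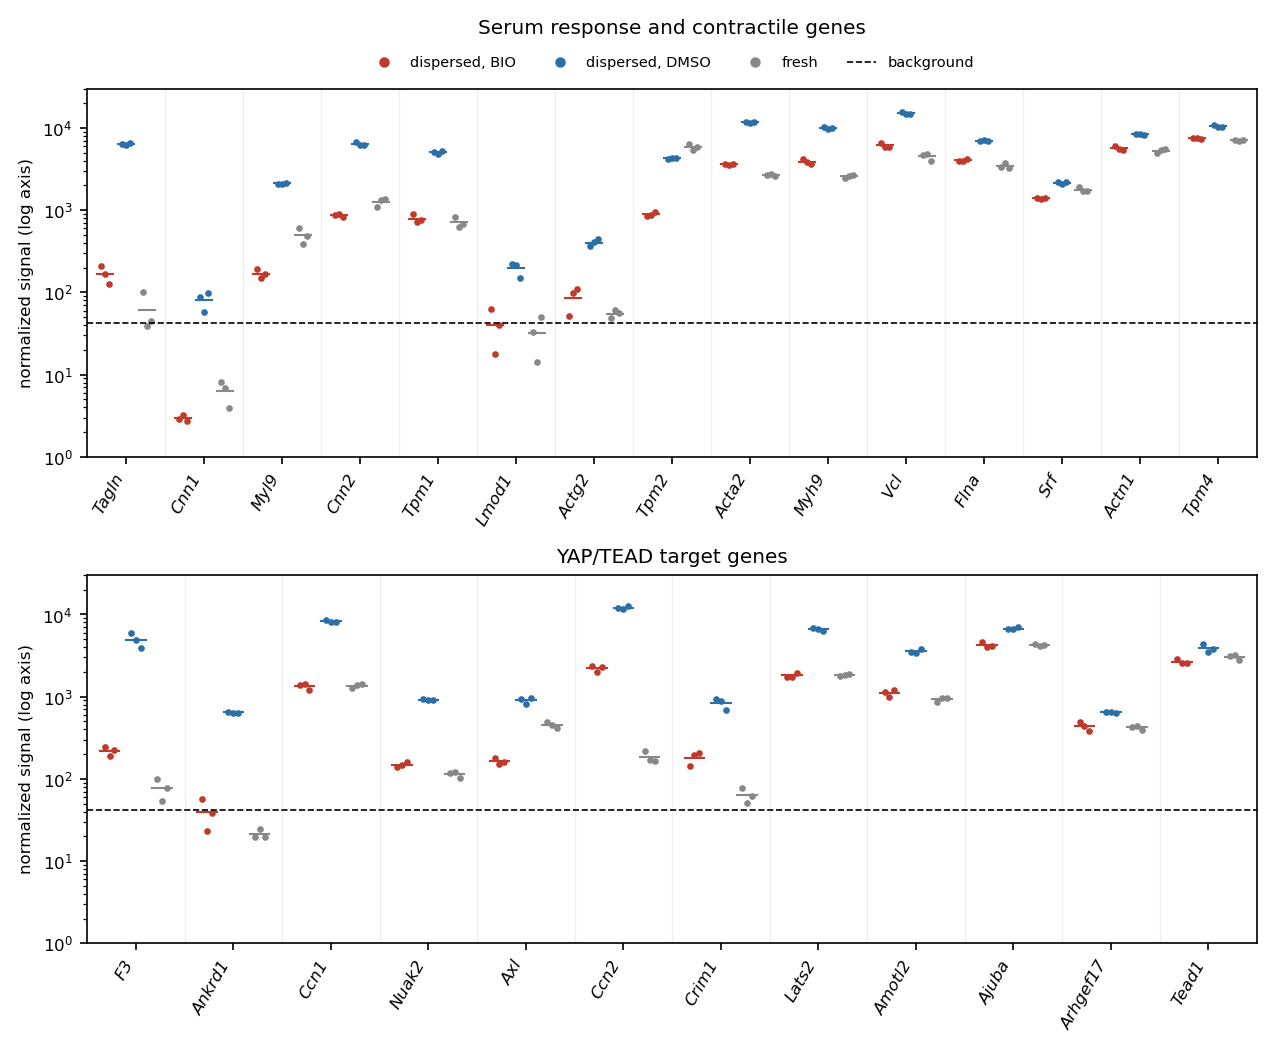
Normalized signal (log axis) of each array for the 15 measured serum response and contractile genes (top) and the 12 measured YAP/TEAD targets (bottom) in dispersed BIO, dispersed DMSO and fresh cells, from left to right within a gene; short lines are means of 3 arrays and the dashed line is background. BIO arrays lie below DMSO arrays for all 27 genes, and for Tagln, F3 and Ccn2 the fresh means lie lower still.

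Immediate early genes, which growth factors and serum switch on within minutes, were lower as well. Of 15 measured 12 fell and none rose (median -1.10), against 13.4% lower over all genes. That count held whichever dispersed array was left out. Ier3 had 775, 506 and 522 in BIO and 4274, 3174 and 3324 in DMSO (-2.59 ± 0.26, adjusted p = 1.0e-06). The zinc finger factors Egr3 (-2.56 ± 0.31, adjusted p = 7.8e-06) and Egr2 (-2.46 ± 0.17, adjusted p = 1.9e-08) fell by similar amounts. Fos, a partner in AP-1, had 2294, 1853 and 2294 in BIO and 7336, 6984 and 7328 in DMSO (-1.76 ± 0.17, adjusted p = 8.2e-07). Dusp1, the phosphatase that ends MAP kinase signals, fell by 2.03 ± 0.20 (adjusted p = 7.4e-07).

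The FGF and MAPK feedback list moved in that direction too: 6 of 11 measured fell and none rose, against 13.4% lower over all genes. The count was 5 or 6 when 1 dispersed array was left out and 5 with the Gapdh ratio as a covariate. Among the falls was the receptor Fgfr1 (-0.465, adjusted p = 0.0129), a call lost without any 1 of 3 of the dispersed arrays. Spry1, a sprouty inhibitor, had 1383, 1261 and 1221 in BIO and 4549, 4448 and 4499 in DMSO (-1.81 ± 0.10, adjusted p = 6.0e-10). Dusp6, which inactivates ERK, had 3084, 2986 and 3100.5 in BIO and 10063, 10250 and 10790 in DMSO (-1.76 ± 0.11, adjusted p = 2.5e-09). Spry2 (-1.40 ± 0.16, adjusted p = 6.2e-06) and Spry4 (-0.64 ± 0.16, adjusted p = 0.0061) fell by less. Fgf5, a ligand of the same family and among the 20 largest falls, had 28.0, 26.8 and 37.4 in BIO and 1455, 1401 and 1713 in DMSO, at least 35.4-fold lower (adjusted p = 3.0e-06). Fgf20 and Fgf5 were therefore called in opposite directions.

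The matrix and its receptors were mostly lower. Of 20 measured genes of the basement membrane and integrins 11 fell and 3 rose (median -0.91). In all 70% were called, against 28.7% over all genes. Nid2 (-2.93 ± 0.16, adjusted p = 7.9e-10) and Nid1, the nidogens that link laminin to collagen IV, both fell, Nid1 with 1476, 1694 and 1583 in BIO and 8930, 8892 and 8868 in DMSO (-2.49 ± 0.11, adjusted p = 9.3e-11). The collagen-binding integrin chain Itga1 (-2.66 ± 0.28, adjusted p = 1.6e-06) and the laminin-binding chain Itga3 (-2.03 ± 0.17, adjusted p = 1.1e-07) fell as well. Col4a6, a minor collagen IV chain, ran against them with 441, 346 and 399 in BIO and 26.3, 78.2 and 78.4 in DMSO (2.83 ± 0.39, adjusted p = 3.1e-05).

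Among matrix proteases and their inhibitors 8 of 12 measured fell and 1 rose (75% called, against 28.7% over all genes). Adamts5, an aggrecan-cleaving enzyme, had 449, 575 and 524 in BIO and 5315, 4640.3 and 5032 in DMSO (-3.28 ± 0.19, adjusted p = 1.7e-09). Plat, tissue plasminogen activator, had 933, 943 and 998 in BIO and 5683, 5895 and 5572 in DMSO (-2.58 ± 0.08, adjusted p = 2.2e-12). The urokinase receptor Plaur (-1.62 ± 0.12, adjusted p = 4.8e-08) and the inhibitor Timp3 (-1.56 ± 0.14, adjusted p = 2.0e-07) fell with them. Adamts9 was the member that rose, with 4071, 3829 and 3954 in BIO and 843, 800.2 and 805 in DMSO (2.27 ± 0.10, adjusted p = 1.1e-10), and its fresh level was 3518 ± 157 (SD, n = 3). Adamts18, outside that list, fell at least 13.7-fold (adjusted p = 9.1e-08).

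Stromal and mesenchymal genes fell. Of 14 measured genes of the interstitial stroma 9 fell and 1 rose (median -1.27). In all 71.4% were called, against 28.7% over all genes. Pdgfrb, a receptor of stroma and pericytes, had 62.2, 77.8 and 64.1 in BIO and 1724, 1879 and 1619.6 in DMSO (-4.66 ± 0.24, adjusted p = 5.3e-10). Foxd1, the transcription factor of the stromal lineage, had 789, 841 and 968 in BIO and 4437, 4523 and 4236 in DMSO (-2.35 ± 0.15, adjusted p = 4.2e-09). The matrix protein Smoc2 (-3.33 ± 0.28, adjusted p = 1.3e-07) and the collagens Col3a1 (-2.08 ± 0.10, adjusted p = 2.2e-10) and Col1a1 (-1.96 ± 0.22, adjusted p = 4.2e-06) fell too. All 14 were above background, and their summed signal was 4665 to 5136 in BIO, against 15890 to 16570 in DMSO, and 20340 to 22150 in fresh cells. Whether stromal cells remained in the sort, and their part in these falls, was not tested.

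Of 12 measured genes of mesenchymal transition 7 fell and none rose (median -0.90), against 13.4% lower over all genes. Fn1, fibronectin, had 2248, 2158 and 2009 in BIO and 9870.5, 9724 and 10269 in DMSO (-2.22 ± 0.10, adjusted p = 1.6e-10). The repressors Zeb2 (-2.50 ± 0.24, adjusted p = 5.9e-07) and Snai2 (-1.77 ± 0.15, adjusted p = 1.1e-07) fell, as did the transcription factor Twist2 (-1.45 ± 0.29, adjusted p = 0.0011). S100a4 fell at least 2.83-fold (adjusted p = 4.3e-04). Of the 6 measured podocyte genes 4 fell and none rose, against 13.4% lower over all genes. Clic5 (-3.77 ± 0.60, adjusted p = 1.4e-04), the forkhead gene Foxc2 (-3.74 ± 0.29, adjusted p = 4.9e-08) and the actin-binding Synpo (-2.77 ± 0.36, adjusted p = 1.9e-05) fell. The phosphatase Ptpro was at least 2.30-fold lower (adjusted p = 1.6e-04). Its call was lost when its probe sets were averaged (-0.30, adjusted p = 0.716). Foxc2 had 171, 131 and 92.4 in BIO and 1641, 1856 and 1668 in DMSO, with 1492 ± 239.9 in fresh cells (SD, n = 3).

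Of 15 measured junction and keratin genes 2 fell and 1 rose (20% called, against 28.7% over all genes), and leaving out 1 dispersed array gave 1 to 3 falls and 0 to 1 rise. Krt19, a keratin of simple epithelia, had 88.2, 87.2 and 74.1 in BIO and 660.5, 761 and 727 in DMSO (-3.09 ± 0.27, adjusted p = 2.2e-07). Cldn1, a tight junction claudin outside that list, was among the 20 largest falls, with 65.2, 71.4 and 38.2 in BIO and 2442, 2317 and 2329 in DMSO (-5.37 ± 0.41, adjusted p = 5.0e-08). Cdh1, the epithelial cadherin, was not called (-0.35 ± 0.60, adjusted p = 0.73) and was named after its value was seen.

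Prostaglandin genes gave some of the sharpest falls. Of 11 measured 5 fell and none rose (45.5% called, against 28.7% over all genes). Ptgs2, the inducible enzyme COX-2 that starts prostaglandin synthesis, had 116, 86.7 and 93.2 in BIO and 3418, 3604 and 4029 in DMSO (-5.22 ± 0.28, adjusted p = 6.0e-10), while the fresh level of 2.47 ± 0.144 (SD, n = 3) was below background. Hpgd, which degrades prostaglandins, had 118, 111 and 96.1 in BIO and 6379, 6342 and 6164 in DMSO (-5.85 ± 0.22, adjusted p = 1.2e-11). The receptor Ptger4 had 286, 244 and 313 in BIO and 1962, 1969 and 2264 in DMSO (-2.88 ± 0.21, adjusted p = 3.3e-08). The transporter Slco2a1 (-1.46 ± 0.16, adjusted p = 3.5e-06) and the synthase Ptges (-0.83 ± 0.18, adjusted p = 0.0025) fell by less, and averaging probe sets ended the call of Slco2a1 (-0.42, adjusted p = 0.106). Genes of synthesis, breakdown and reception thus fell side by side.

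The insulin-like growth factor genes were lower in 7 of 10 measured and higher in 1 (80% called, against 28.7% over all genes). Igf2, the fetal growth factor, had 1741, 1570.4 and 1534 in BIO and 6977, 6965 and 7703 in DMSO (-2.16 ± 0.11, adjusted p = 3.3e-10). The binding proteins Igfbp7 (-2.54 ± 0.19, adjusted p = 3.5e-08), Igfbp6 (-2.04 ± 0.25, adjusted p = 1.1e-05), Igfbp2 (-1.54 ± 0.23, adjusted p = 6.4e-05) and Igfbp3 (-1.51 ± 0.17, adjusted p = 4.6e-06) fell. The member that rose, named after its value was seen, was Igfbp4 (0.63 ± 0.08, adjusted p = 8.4e-06).

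In the BMP and TGF-beta list 6 of 13 measured fell and 2 rose (61.5% called, against 28.7% over all genes). Bmp7, made by progenitors and needed for their survival, had 2853, 2781 and 2824 in BIO and 584, 625 and 594 in DMSO (2.23 ± 0.13, adjusted p = 2.5e-09). Bambi, a decoy receptor and Wnt target, rose by 1.40 ± 0.17 (adjusted p = 9.5e-06). Bmp4 had 346, 532 and 522 in BIO and 1316, 1673 and 1658 in DMSO and fell (-1.75 ± 0.17, adjusted p = 8.8e-07). Inhba, the activin subunit, had 171, 80.3 and 158 in BIO and 1899, 1899.9 and 1942 in DMSO (-3.87 ± 0.33, adjusted p = 1.8e-07). Id4, a BMP response gene, fell by 1.41 ± 0.11 (adjusted p = 3.5e-08). Ligands of the family were therefore called in both directions.

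Retinoic acid genes rose in 5 and fell in 2 of 12 measured (58.3% called, against 28.7% over all genes). Aldh1a2, the enzyme that makes retinoic acid, had 9517, 9282 and 9181 in BIO and 1662, 1666 and 1424 in DMSO (2.56 ± 0.08, adjusted p = 1.8e-12), and its fresh level was 6955 ± 284 (SD, n = 3). The binding proteins Crabp2 (at least 4.38-fold, adjusted p = 6.2e-06) and Crabp1 (at least 1.42-fold, adjusted p = 1.9e-04) rose, though Crabp1 was not called when signals below background were raised to it (0.50, adjusted p = 0.0632), and so did Stra6, the vitamin A transporter (1.41 ± 0.17, adjusted p = 7.6e-06). Rarb, a receptor gene that retinoic acid itself induces, fell, with 367, 344 and 356 in BIO and 1163, 1101 and 1222 in DMSO (-1.70 ± 0.14, adjusted p = 8.0e-08).

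Notch pathway genes fell in 5 and rose in 1 of 12 measured (50% called, against 28.7% over all genes). Hes1, the main Notch effector, had 139, 192 and 196 in BIO and 692, 834 and 844 in DMSO (-2.18 ± 0.18, adjusted p = 1.3e-07). The receptor Notch2 (-0.86 ± 0.09, adjusted p = 2.6e-06) and the sugar transferase Lfng (-1.04 ± 0.16, adjusted p = 8.0e-05) fell. Hes5, the related effector, rose at least 1.31-fold from below background (adjusted p = 0.012), but by 0.39 with an adjusted p of 0.297 when signals below background were raised to it. The calls were lost when probe sets were averaged for Hes5 (1.43, adjusted p = 0.0514) and Notch2 (-0.30, adjusted p = 0.316), and for Hes5 also with the Gapdh ratio as a covariate (1.64, adjusted p = 0.0811).

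Guidance molecules changed in both directions in 14 of 18 measured, 6 higher and 8 lower (77.8% called, against 28.7% over all genes). Sema3c, a secreted semaphorin, had 9274, 8148 and 8676 in BIO and 469, 506 and 433 in DMSO (4.21 ± 0.15, adjusted p = 9.2e-12). Its relatives went the other way: Sema3d had 104, 99.2 and 57.2 in BIO and 2734, 2509.7 and 2947 in DMSO (-5.01 ± 0.33, adjusted p = 8.8e-09), and Sema3e fell by 4.63 ± 0.31 (adjusted p = 8.4e-09). Nrp1, a semaphorin co-receptor, fell, with 852, 1053 and 1054 in BIO and 8329, 8018 and 7189 in DMSO (-2.99 ± 0.14, adjusted p = 1.9e-10), and the ephrin receptor Epha7 rose (3.10 ± 0.40, adjusted p = 1.8e-05). Within the secreted semaphorins, Sema3c was thus opposite to Sema3d and Sema3e.

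A chemokine and its receptor also parted. Cxcl12, which attracts cells bearing CXCR4, had 212, 134 and 163 in BIO and 8565, 8994 and 9211 in DMSO (-5.73 ± 0.26, adjusted p = 9.5e-11), while Cxcr4 rose as given above. Over the chemokine list 4 of 11 measured fell and 2 rose (54.5% called, against 28.7% over all genes). Cxcl1, a neutrophil attractant, rose (1.36 ± 0.28, adjusted p = 0.0013) and Ccl2, a monocyte attractant, fell (-1.0 ± 0.23, adjusted p = 0.0032).

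The remaining large falls included genes of quite different kinds. Ms4a2, the beta chain of the IgE receptor known from mast cells, had 36.9, 16.7 and 21.1 in BIO and 4902, 4389.5 and 5066 in DMSO, which ranked first among the falls at a bound of at least 112-fold (adjusted p = 8.4e-09). Its fresh level was 40.5 ± 14.6 (SD, n = 3), below background. Slc26a7, an anion exchanger, had 31.2, 27.5 and 29.2 in BIO and 2841, 3149.5 and 2853 in DMSO, at least 68.7-fold lower (adjusted p = 2.0e-10). Pgm5, a phosphoglucomutase relative found at adhesion sites, was at least 41.3-fold lower (adjusted p = 9.2e-07).

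Nxph1, a neurexophilin, had 54.5, 57.3 and 71.5 in BIO and 3944, 4152 and 3582 in DMSO (-5.98 ± 0.26, adjusted p = 6.1e-11). Adgra2, an adhesion receptor that helps reception of some Wnt ligands, had 82.7, 69.8 and 63.2 in BIO and 2875, 2644 and 2699 in DMSO (-5.24 ± 0.17, adjusted p = 4.0e-12). Klhdc8a, a kelch repeat protein, fell by 5.54 ± 0.33 (adjusted p = 2.3e-09). Kcnn4, a calcium-activated potassium channel, was below background in BIO and at least 17.3-fold lower (adjusted p = 4.9e-11).

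Below background in BIO were also Ldlrad4, a brake on TGF-beta signalling (at least 10.7-fold, adjusted p = 9.4e-05), Brinp1, a neural protein (at least 8.89-fold, adjusted p = 3.3e-06), and Npy2r, a neuropeptide Y receptor (at least 6.18-fold, adjusted p = 1.3e-05). Together with Tagln, Ptgs2, Hpgd, Cxcl12, Fgf5, Cldn1, Adamts18 and the interferon-induced genes that follow, they complete the 20 largest falls.

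Interferon-induced genes rested partly on a single array. Rtp4 had 4.05, 6.01 and 11.4 in BIO and 212, 196 and 1243 in DMSO, at least 8.73-fold lower (adjusted p = 4.0e-04), and without DMSO replicate 3 its difference was -4.75 with an adjusted p of 0.0031. Oasl2 had 1.61, 1.25 and 5.58 in BIO and 51.6, 32.7 and 746 in DMSO (at least 2.56-fold lower, adjusted p = 0.011), and without that replicate its difference was -3.64 with an adjusted p of 0.0666. With signals raised to background Oasl2 was not called either (-1.47, adjusted p = 0.110). DMSO replicate 3 stood far above the other DMSO arrays for both genes. Ifi202b, another interferon-induced gene, had 6.72, 4.05 and 6.05 in BIO and 240.2, 243 and 396 in DMSO, at least 6.67-fold lower (adjusted p = 1.1e-10). Of the 5 measured genes of the interferon list 2 fell (40% called, against 28.7% over all genes). They were Ifit1 (-2.02 ± 0.69, adjusted p = 0.039) and Irf7 (-1.11 ± 0.39, adjusted p = 0.043). Both calls were lost in several alternatives, and without DMSO replicate 3 the values stood at -0.83 (adjusted p = 0.158) for Ifit1 and -0.68 (adjusted p = 0.226) for Irf7.

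Cell cycle genes rose by small amounts. Of 11 measured G2/M genes 8 rose and none fell (median 0.59), and of 12 measured G1/S genes 6 rose and none fell (median 0.27), against 15.3% higher over all genes. The replication helicase subunit Mcm3 had 5277, 5204 and 5202 in BIO and 3105, 3109 and 3204 in DMSO (0.74 ± 0.10, adjusted p = 2.1e-05), and Mcm2 rose by 0.71 ± 0.09 (adjusted p = 2.5e-05). The mitotic cyclin Ccnb2 had 1796, 1614 and 1635 in BIO and 994, 1120.1 and 933 in DMSO (0.73 ± 0.15, adjusted p = 0.0018). The kinetochore motor Cenpe (0.73 ± 0.15, adjusted p = 0.0015), the spindle motor Kif11 (0.68 ± 0.17, adjusted p = 0.0058) and the mitotic kinase Plk1 (0.71 ± 0.19, adjusted p = 0.0083) rose alike, though Cenpe was not called when its probe sets were averaged (0.66, adjusted p = 0.268). Counts depended on the scaling: with values as deposited 6 G2/M and 3 G1/S genes rose, and with the actin control as a covariate 4 G2/M and 6 G1/S genes. Leaving out 1 dispersed array gave 4 to 7 G2/M and 4 to 6 G1/S genes.

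The shares called in the stress and metabolic lists ran between 16.7% for oxidative phosphorylation and 45.5% for the unfolded protein and amino acid list, against 28.7% over all genes. Of 9 measured p53 targets 2 fell, among them the death receptor Fas (at least 2.27-fold, adjusted p = 0.0067). In the heat shock list 3 of 9 fell and 1 rose. Hspb1, a small heat shock protein that binds actin, had 439.5, 411 and 432 in BIO and 3768, 4247 and 4334 in DMSO (-3.26 ± 0.18, adjusted p = 7.3e-10), while Hspa1a (-0.75 ± 0.17, adjusted p = 0.0030) and Hspa1b (-0.63 ± 0.17, adjusted p = 0.0088) changed far less. Those last genes are near-identical copies, so their signals may be shared.

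Indirubins can also activate the aryl hydrocarbon receptor, so its targets were listed. Of 7 measured 2 rose and 1 fell (42.9% called, against 28.7% over all genes). The rises were those of Ahrr (0.915, adjusted p = 0.0117) and Nqo1 (0.644, adjusted p = 0.0377). The Ahrr call was lost without any 1 of 3 of the dispersed arrays, and the Nqo1 call without any 1 of the 6. The count that rose was 0 or 1 when any 1 dispersed array was left out. It was 0 with the Gapdh ratio as a covariate and 1 with values as deposited. Cyp1b1, a main target, had 2973, 2547 and 2854 in BIO and 9361, 9065 and 8950.5 in DMSO (-1.71 ± 0.11, adjusted p = 9.7e-09), and Cyp1a1, the classical target, named after its value was seen, was not called (-0.81 ± 0.95, adjusted p = 0.60). In the NRF2 list 1 of 9 rose and 2 fell, with Me1, malic enzyme, the larger fall (-1.36 ± 0.15, adjusted p = 3.7e-06) and Txnrd1, thioredoxin reductase, the smaller (-0.54 ± 0.13, adjusted p = 0.0041), not called when its probe sets were averaged (-0.67, adjusted p = 0.440). In the unfolded protein and amino acid list 4 of 11 rose and 1 fell. Asns, asparagine synthetase, rose by 0.71 ± 0.12 (adjusted p = 1.8e-04) and Trib3, a pseudokinase, by 0.55 ± 0.13 (adjusted p = 0.0029), while Phgdh, the first enzyme of serine synthesis, fell by 0.64 ± 0.08 (adjusted p = 1.1e-05).

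GSK3 was named for its action on glycogen synthase, so glycogen genes were listed. Of 10 measured 2 fell and 1 rose (30% called, against 28.7% over all genes). The called genes all bring protein phosphatase 1 to glycogen. The falls were those of Ppp1r3b (-2.12 ± 0.45, adjusted p = 0.0016) and Ppp1r3d (-1.05 ± 0.21, adjusted p = 0.0013). The rise was that of Ppp1r3c (0.70 ± 0.25, adjusted p = 0.044), a call lost without any 1 of 4 of the dispersed arrays (adjusted p up to 0.195) and with values as deposited (adjusted p = 0.0741). The synthase gene Gys1, named after its value was seen, was not called (-0.10 ± 0.22, adjusted p = 0.80). In the sterol and fatty acid list 5 of 13 rose and none fell (38.5% called). The count that rose was 2 to 4 when 1 dispersed array was left out. With values as deposited or each array centred on its median, 2 rose and 1 fell. With the Gapdh ratio as a covariate 3 rose and 1 fell. Fasn, fatty acid synthase, had 3383, 3446 and 3191 in BIO and 1389, 1779.6 and 1819 in DMSO (1.02 ± 0.13, adjusted p = 1.1e-05), and Acaca, the enzyme before it, rose by 0.95 ± 0.13 (adjusted p = 3.1e-05).

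Among glycolysis and hypoxia genes 3 of 14 fell and 1 rose (28.6% called, against 28.7% over all genes). Ndrg1, a stress and hypoxia response gene, had 417, 513 and 546 in BIO and 2111, 2126 and 2072 in DMSO (-2.10 ± 0.22, adjusted p = 1.7e-06), and Hk1, a hexokinase, fell by 0.47 ± 0.09 (adjusted p = 0.0012), a call lost when its probe sets were averaged (-0.06, adjusted p = 0.858). Of 12 measured genes of oxidative phosphorylation 1 rose and 1 fell. Of 12 Hox genes, which set position along the body, 2 rose and 1 fell (25% called). Hoxd9 (0.96 ± 0.12, adjusted p = 1.2e-05) and its neighbour Hoxd8 (0.50 ± 0.08, adjusted p = 1.2e-04) were higher and Hoxc10 lower (-0.43 ± 0.10, adjusted p = 0.0041).

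**Figure D4:**
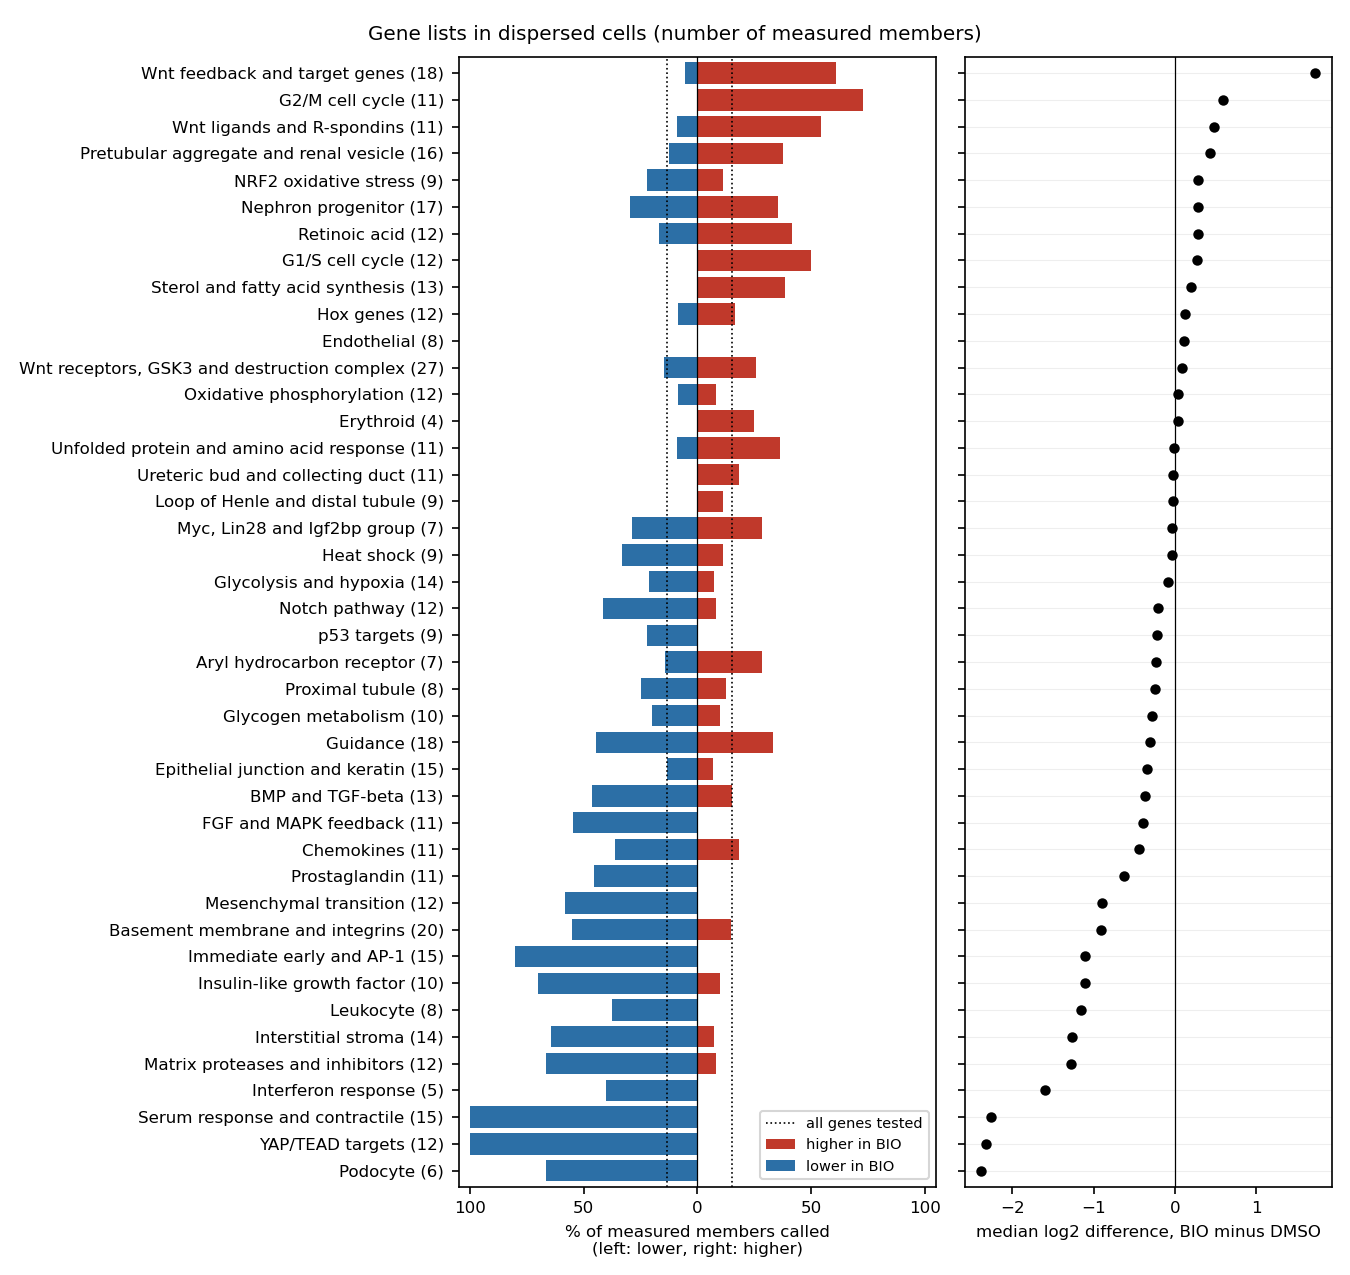
Share of measured members called higher (right) or lower (left) in BIO for each gene list (left panel, number measured in brackets, dotted lines at 15.3% higher and 13.4% lower over all genes) and the median log2 difference of the list, BIO minus DMSO (right panel). The Wnt targets stand at the top with a median of 1.72, and the contractile and YAP/TEAD lists near the bottom with all members lower.

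Markers of other cell types were called in differing shares, against 28.7% over all genes. None of 8 measured endothelial genes was called, 1 of 9 of the loop of Henle and distal tubule and 2 of 11 of the ureteric bud and collecting duct rose, and in the proximal tubule list 2 of 8 fell and 1 rose. No proximal gene was called without BIO replicate 1, without DMSO replicate 3 or with the Gapdh ratio as a covariate. Wfdc2, a secreted protein of distal epithelia, was the distal gene that rose (1.63 ± 0.28, adjusted p = 2.5e-04), and Wnt11, a ligand of ureteric bud tips, rose by 0.47 ± 0.12 (adjusted p = 0.0083). All 4 measured erythroid genes lay below background in both groups, among them Alas2, which was called with 35.5, 10.1 and 41.8 in BIO and 3.69, 4.65 and 6.09 in DMSO. Leukocyte markers were lower in 3 of 8 (2 to 4 when 1 dispersed array was left out), and 2 of the 8 lay below background in both groups, with a summed signal of 558.9 to 709.7 in BIO, against 1082 to 1304 in DMSO. Csf1r, the macrophage growth factor receptor, had 199, 154 and 204 in BIO and 502, 655 and 629 in DMSO (-1.68 ± 0.17, adjusted p = 9.9e-07), and Lyz2, a lysozyme, fell too (-1.43 ± 0.36, adjusted p = 0.0063), though not in a fit of the 6 arrays alone (adjusted p = 0.0602). Ptprc, the common leukocyte antigen, named after its value was seen, had 31.7, 24.3 and 7.13 in BIO and 78.2, 59.6 and 51.4 in DMSO and was not called (adjusted p = 0.060), though it was without BIO replicate 1 (adjusted p = 0.0438) and with the actin covariate (adjusted p = 0.0456). The part of these cells in other falls was not tested.

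Whether the response depended on the culture format was asked by taking the BIO effect in dispersed cells minus that in aggregates. Of 18193 genes 285 differed (1.57%), 153 with the higher (0.841%) and 132 with the lower value in dispersed cells (0.726%). Beside the dispersed values above, the 3' actin control read 3706 ± 1487 in BIO and 10556 ± 2545 in DMSO in aggregates (SD, n = 3 each), and with it as a covariate 120 genes differed, 90 higher and 30 lower. The count was 180 without dispersed BIO replicate 3, 177 without dispersed DMSO replicate 3 and 171 without aggregate BIO replicate 1. The size of a difference that involves signals below background depends on those signals and is not a bound, so the value after raising each such signal to background, a setting chosen after seeing the data, is given beside it.

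Some genes had a higher BIO effect in dispersed cells, the Wnt genes Wif1 and Wnt5a among them. For Wif1 the difference of the effects was 3.49 ± 0.56 (adjusted p = 0.0040), or 2.64 with signals raised to background, where aggregates had 238, 374 and 174 in BIO and 3.32, 11.6 and 2.55 in DMSO. Fgf20 differed by 2.96 ± 0.47 (adjusted p = 0.0040) and Dcc by 3.34 ± 0.57 (adjusted p = 0.0061), or by 1.76 and 2.92 with signals raised to background. Wnt5a, which rose in dispersed cells, had 202, 197 and 159 in BIO and 121, 184 and 150.2 in DMSO in aggregates, and its effects differed by 2.24 ± 0.27 (adjusted p = 5.4e-04), or by 1.32 with an adjusted p of 0.0676 when its probe sets were averaged. Epha7 (3.02 ± 0.57, adjusted p = 0.011), Tenm2 (3.30 ± 0.69, adjusted p = 0.022) and Lrrc20 (3.21 ± 0.64, adjusted p = 0.016) lost the call with the actin covariate. Tenm2 and Lrrc20 also lost it without certain arrays, with adjusted p up to 0.0587 for Tenm2 and 0.0522 for Lrrc20. With signals raised to background the difference was 2.16 for Tenm2 and 0.80 for Lrrc20, where the call was lost (adjusted p = 0.424). In dispersed cells Lrrc20 itself was not called between BIO and DMSO (0.134, adjusted p = 0.875).

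Genes of nephron induction went both ways. Of the 16 measured pretubular and renal vesicle genes 7 differed between the formats, against 1.57% of all genes. Lhx1 lay below background on all dispersed arrays, while aggregates had 198, 345 and 177 in BIO and 2.74, 3.27 and 3.80 in DMSO. Its fitted difference of -5.44 ± 0.45 (adjusted p = 1.1e-05) was -2.43 with signals raised to background. Pax8 (-1.29 ± 0.16, adjusted p = 5.5e-04), Bmp2 (-1.87 ± 0.19, adjusted p = 1.2e-04) and Papss2 (-2.72 ± 0.41, adjusted p = 0.0022) had lower effects in dispersed cells, while Irx3 (1.58 ± 0.29, adjusted p = 0.010), Cdh4 (0.88 ± 0.18, adjusted p = 0.023) and Cdh6 (0.83 ± 0.16, adjusted p = 0.012) had higher ones. Itga8, the integrin by which progenitors sense the ureteric bud matrix, had 1147, 1364 and 1239.9 in BIO and 1265, 1409 and 1205 in DMSO in dispersed cells and rose in aggregates, a difference of -1.74 ± 0.16 (adjusted p = 4.3e-05). Lhx1, Bmp2, Itga8, Pax8 and Irx3 kept the call with the actin covariate, and Papss2, Cdh4 and Cdh6 did not. With all probe sets of a gene averaged, Pax8, Papss2, Cdh4 and Cdh6 lost it as well.

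The other genes with lower effects in dispersed cells were varied. Lama4, a laminin chain, had 41.3, 153 and 103 in BIO and 36.7, 93.9 and 82.4 in DMSO in dispersed cells, with overlapping arrays, against 732, 833 and 843 in BIO and 33.4, 89.2 and 42.1 in DMSO in aggregates (-3.58 ± 0.59, adjusted p = 0.0050). Frat2, a protein that binds GSK3 and keeps it from beta-catenin, had 53, 25.9 and 61.3 in BIO and 712, 763 and 936 in DMSO in dispersed cells, a difference of -4.15 ± 0.34 (adjusted p = 1.0e-07), against -1.57 ± 0.34 in aggregates (-2.59 ± 0.48 for the difference of the effects, adjusted p = 0.011). Rassf6, of the Ras association family, fell at least 1.96-fold in dispersed cells and had a difference of 0.89 ± 0.30 in aggregates (-2.75 ± 0.43, adjusted p = 0.0029). Sco2, a cytochrome oxidase assembly factor, fell at least 3.65-fold in dispersed cells and had a difference of 0.49 ± 0.21 in aggregates (-2.51 ± 0.30, adjusted p = 4.6e-04). Svopl rose in both formats, less in dispersed cells (-2.74 ± 0.36, adjusted p = 9.6e-04). With signals raised to background the differences were -3.53 for Lama4, -2.36 for Frat2, -1.86 for Rassf6, -2.36 for Sco2 and -2.39 for Svopl. Lama4, Frat2 and Rassf6 lost the call with the actin covariate, and Lama4 also when its probe sets were averaged (-2.21, adjusted p = 0.0741).

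**Figure D5:**
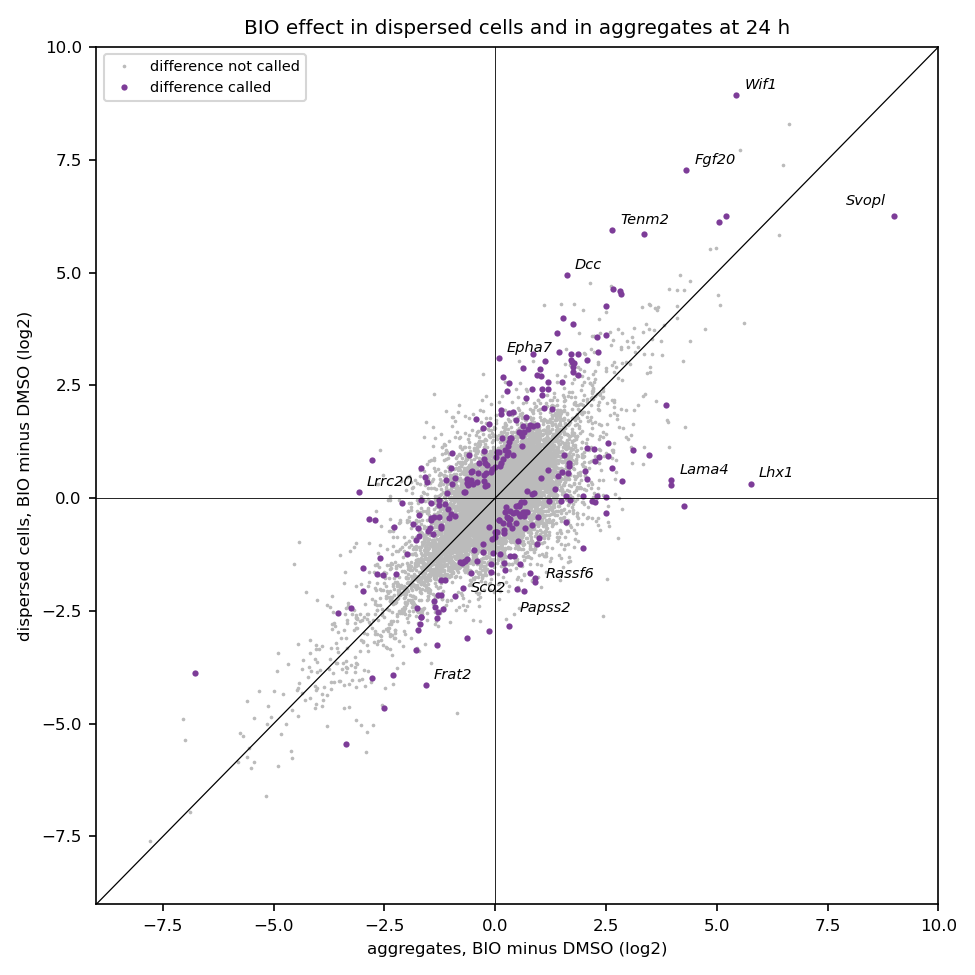
BIO minus DMSO (log2) in dispersed cells (vertical axis) against the same in aggregates at 24 h (horizontal axis) for all 18193 genes, with the line of equal effects; purple points are the 285 genes whose effects differed, and the named ones are labelled. Wif1, Fgf20, Tenm2 and Dcc lie above the line and Lhx1, Lama4 and Svopl below it.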

How the data were processed

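Expression was measured on 21 arrays in 7 groups of 3, all of which entered the fit. Per the labels' protocols, RNA was extracted with a nanoprep kit and amplified in 2 rounds to biotin-labelled RNA. The authors deposited linear signal intensities for 45101 probe sets, from 0.1 to 18025.33; their software, scaling and scan batch are not stated in any label or header.

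Values were taken as log2(value + 1) and quantile normalized. Of the probe sets 34945 had 1 gene symbol in the platform annotation (34741 updated through RefSeq), 932 several, 9160 none and 64 were controls. The probe set with the highest mean stood for each of 18193 genes. limma 3.58.1 in R 4.3.3 was fitted with 1 mean per group (14 residual degrees of freedom), two-sided, with Benjamini-Hochberg adjustment at 0.05. Arrays limit precision through their number, 3 per group. In simulated data changes were planted in 50 genes per size, drawn only from genes with a mean signal above the median of the 18193. The fit for this comparison recovered 48% of changes at log2 0.5, 88% at 1, 92% at -1 and 100% at 2. Recovery in dimmer genes was not tested.

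Picked for naming were the 20 largest rises and falls with non-overlapping arrays and the higher mean above background. With them came up to 5 called members of each list by size of change and the 6 largest differences from aggregates on each side. Axin2, Lef1, Wnt4, Lhx1, Six2, Cited1, Gsk3a, Gsk3b and Ctnnb1 were always picked. The picked list members are not all given in the text. Provisional symbols were left out of the largest changes. Comparison, lists and genes were chosen with earlier results of these data known. Promoter windows came from a RefSeq table with 32851 entries, searched for motifs on both strands. The labels do not say what the replicate numbers mark, and the main fit used no pairing. The deviations of same-numbered BIO and DMSO arrays correlated at -0.0048, 0.035 and -0.010, and those of unlike-numbered ones at -0.066 to 0.070. With 3 arrays a group this cannot show whether arrays shared a sort or litter. Alternatives covered scaling, pseudocount, dim genes, probe set choice, arrays fitted and variance model. Others took the Gapdh ratio or the actin control as a covariate, or left out each array. Signals below background raised to it were added after seeing the data.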

Additional observations from a re-analysis of the deposited data

Results flagged for a closer look

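The BIO effect differed between dispersed cells and aggregates in the test of the difference itself (limma, adjusted p under 0.05) for 26 genes that were named or belong to the Wnt, pretubular or progenitor lists. Differences are log2 values, dispersed minus aggregates, and their cause was not tested. Those of genes with signals below background, Lhx1, Wif1, Svopl, Fgf20, Dcc, Tenm2, Lrrc20, Rassf6 and Sco2 among them, depend on these signals and are not bounds.

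The effect was higher in dispersed cells for the Wnt inhibitors and targets Wif1 (3.49), Apcdd1 (1.29), Tnfrsf19 (1.07) and Nkd1 (0.82), and for the ligands Wnt5a (2.24), Rspo3 (1.27) and Wnt6 (0.925). It was also higher for Fgf20 (2.96), Dcc (3.34), Tenm2 (3.30), Lrrc20 (3.21) and Epha7 (3.02), and for the nephron genes Irx3 (1.58), Cdh4 (0.88) and Cdh6 (0.833).

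The effect was lower in dispersed cells for the nephron genes Lhx1 (-5.44), Papss2 (-2.72), Bmp2 (-1.87) and Pax8 (-1.29), and for the progenitor genes Itga8 (-1.74) and Uncx (-1.13). It was lower as well for Lama4 (-3.58), Rassf6 (-2.75), Svopl (-2.735), Frat2 (-2.59) and Sco2 (-2.51). Of the 26, 13 lost the call with the actin control as a covariate, and 7 lost it when 1 array was left out (Apcdd1, Cdh4, Lrrc20, Nkd1, Tenm2, Tnfrsf19 and Uncx).

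Among the 9160 probe sets without a gene symbol, which the comparison above does not use, 899 were called for BIO against DMSO in dispersed cells (9.8%), 581 higher and 318 lower.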

How the results depend on the processing

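Under the alternatives of scaling, pseudocount, filter, probe set choice, arrays fitted, variance model and covariates, 4127 to 6503 genes were called for BIO against DMSO, with 7710 probe sets when each was tested on its own, and 4337 to 4480 genes when 1 array was left out. Requiring at least 2-fold left 1898. The split depended on scaling: 2792 higher and 2438 lower became 2252 and 2699 with values as deposited and 2138 and 2658 with each array centred, as the median of all genes moved from 0.025 to -0.011 and -0.017. No paired design is stated in the labels, and with the replicate block 4982 genes were called, 4913 of them shared. For the difference from aggregates the block gave 244 genes, against 285 without it, 163 at 2-fold or more, 150 with probe sets averaged, 545 with array weights, 120 with the actin covariate and, in a setting chosen after seeing the data, 446 with signals below background raised to it, and 171 to 277 without 1 array. Among the genes picked for naming or named later, 216 were called. Of these 185 kept the call whichever dispersed array was left out, and 31 lost it at least once. Not all of the 216 are given in the text.

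Among the genes picked for naming or named later, signs turned only in ones that were not called. With probe sets averaged Ctnnb1 was 0.129 and Pax8 0.194. Gsk3b was -0.0 as deposited, -0.006 with arrays centred and -0.02 with the actin covariate. With the Gapdh ratio Cdh1 was 0.094, Pax8 0.006 and Cyp1a1 0.0. Leaving out 1 array gave -1.109 to 0.084 for Cdh1, -0.302 to 0.017 for Gys1, -0.113 to 0.015 for Itga8, -0.018 to 0.922 for Lama4 and -0.015 to 0.355 for Lrrc20. Causes were not tested. Genes below background have only bounds, and small changes near log2 0.5 were often missed in simulated data.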
